A study of Mus musculus with 18 samples.

Results

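The Slc25 genes encode the mitochondrial carrier family, the proteins that move metabolites across the inner mitochondrial membrane. Members were chosen by name: every probe of the bead array whose annotated symbol was Slc25a followed by a number. This gave 76 of 45281 probes and 46 genes, of which 37 passed the detection filter and stood among the 11406 genes tested. In each group of arrays a probe counted as detected at a detection p under 0.05, and a gene was tested when a probe of it was detected on all 3 arrays of at least 1 group. The other 9 genes were Slc25a21, Slc25a22, Slc25a27, Slc25a31, Slc25a40, Slc25a41, Slc25a43, Slc25a46 and Slc25a54. The most often detected probe among them, one of Slc25a40, was detected on 5 of 18 arrays.

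Total RNA of 18 samples was measured, 1 array each, to ask which transcripts differ after U73122, a compound widely used to block phospholipase C. Per the labels, the cells were CD110+ cells taken by magnetic sorting from colon tumours of C57Bl/6 mice at 17 weeks of age. All samples share the alleles Fapbl-Cre, Apc2lox14/+ and tet-KrasLSL-G12D/+ and were kept with Dox, so the untreated cells carry and receive these too. The mice are labelled FAK7, FAK1 and FAK5, here label 7, label 1 and label 5. The 6 groups of 3 arrays were label 7 with 1 µM U73122 for 24 h, label 7 untreated, label 1 with U73122, label 1 untreated, label 5 with U73122, and label 5 untreated. Neither whether a label is a single animal nor whether replicates were separate cultures is stated, so the spread behind each p-value is that between these samples and may be technical. Sex transcripts, given below, show that labels 1 and 5 do not each come from a single animal. The promoter behind Fapbl-Cre is not spelled out in the sources used here.

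Most markers went against the labelled tissue. Of 15 colon epithelium markers, 6 to 8 were detected under label 7, 3 to 6 under label 1 and 2 to 5 under label 5, and the surface protein Epcam was detected on 0 of the 18 arrays. Others of that list went the other way. Under label 7, Krt8 (12.23), Krt18 (10.92), Cdh1 (8.22) and Tff3 (6.85) were detected on all 6 arrays. Lgals4 was detected on all 6 arrays of each label (8.76, 9.08 and 7.05 under labels 7, 1 and 5). Liver markers (11 of 12 detected) had a median log2 signal of 13.94 to 14.19 under label 7. Of these, Alb (5.81) and Tat (5.19, against 5.26 under label 1) read far below that median, and Fgb was detected on 0 arrays. Under label 1, 6 of 7 general fat markers were detected with medians of 11.76 to 12.04, and 7 or 8 of 9 brown fat markers with medians of 9.42 to 10.37. All 13 skeletal muscle markers were detected under label 5, with medians of 14.30 to 14.41. Erythroid markers had medians between 8.35 and 11.26 and leukocyte markers between 5.97 and 7.35 over all arrays. The X-inactivation RNA Xist stood at 9.80 to 10.57 on 8 arrays, the treated arrays and untreated replicate 2 of labels 1 and 5. The Y-linked gene Eif2s3y stood at 8.14 to 10.21 on the other 10. Groups are therefore called by their label only.

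As background, carriers of this family share a fold of repeated membrane helices, and most exchange one metabolite for another. Together they supply the matrix with phosphate, ADP, amino acids and cofactors and return ATP, citrate and other products to the cytosol. Tissues are known to use different members for like tasks: in mice Slc25a4 is the ADP/ATP carrier of heart and skeletal muscle, Slc25a5 that of most other tissues, and Slc25a13 is the aspartate/glutamate carrier of liver where muscle and brain use Slc25a12.

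Promoter windows of 4 members are shown to set beside the label differences below: the paralogous ADP/ATP carriers Slc25a4 and Slc25a5, whose order of labels differs, and Slc25a42 and Slc25a47, which led their groups of carriers under label 1 and label 7. Each window runs from 250 bases before to 50 bases after the gene's start in RefSeq (build GRCm38.p6), printed 5′ to 3′ on the gene's strand, with CCAAT or its complement ATTGG in capitals. The windows lie at chr8:46211013-46211312 (minus strand) for Slc25a4, chrX:36795347-36795646 (plus strand) for Slc25a5, chr8:70212232-70212531 (minus strand) for Slc25a42 and chr12:108850879-108851178 (plus strand) for Slc25a47.
Slc25a4: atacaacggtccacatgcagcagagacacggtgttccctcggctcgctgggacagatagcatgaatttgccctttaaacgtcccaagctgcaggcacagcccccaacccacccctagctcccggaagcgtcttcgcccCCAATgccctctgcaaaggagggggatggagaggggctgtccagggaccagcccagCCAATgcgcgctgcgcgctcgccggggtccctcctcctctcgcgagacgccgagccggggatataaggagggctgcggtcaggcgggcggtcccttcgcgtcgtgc
Slc25a5: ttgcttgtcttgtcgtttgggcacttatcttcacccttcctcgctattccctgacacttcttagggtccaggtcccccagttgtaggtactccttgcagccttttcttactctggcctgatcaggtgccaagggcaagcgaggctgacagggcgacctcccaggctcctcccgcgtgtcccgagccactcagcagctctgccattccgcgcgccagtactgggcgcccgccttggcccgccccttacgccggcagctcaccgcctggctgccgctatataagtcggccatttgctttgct
Slc25a42: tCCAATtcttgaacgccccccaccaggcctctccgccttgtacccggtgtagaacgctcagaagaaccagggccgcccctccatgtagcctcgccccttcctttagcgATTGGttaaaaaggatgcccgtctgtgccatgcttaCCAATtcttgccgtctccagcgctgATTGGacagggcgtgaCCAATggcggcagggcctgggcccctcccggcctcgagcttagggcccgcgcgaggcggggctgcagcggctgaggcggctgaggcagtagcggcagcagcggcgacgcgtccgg
Slc25a47: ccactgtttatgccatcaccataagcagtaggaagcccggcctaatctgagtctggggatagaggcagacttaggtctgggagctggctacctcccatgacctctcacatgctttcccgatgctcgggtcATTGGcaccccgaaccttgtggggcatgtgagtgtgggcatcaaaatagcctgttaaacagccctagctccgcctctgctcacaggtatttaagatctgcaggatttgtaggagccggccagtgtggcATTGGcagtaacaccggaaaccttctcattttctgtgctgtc
The CCAAT box, known to be bound by NF-Y, stood 2 times in the Slc25a4 window, 5 times in that of Slc25a42 and 2 times in that of Slc25a47, and not in that of Slc25a5. RefSeq windows were matched for 36 of the 46 members, and the 30 tested members among them had 37 windows. A CCAAT box on either strand stood in 20 of these 37 (54.1%), against 37.4% of all 32851 windows. The NRF1 motif (GCGCA and GCGC, parted by any 1 base) stood in 1 (2.7%, against 4.6% of all), the oestrogen-related receptor motif AAGGTCA in 1 (2.7%, against 4.72%) and the E-box CAGCTG in 5 (13.5%, against 16.3%). Both strands were searched, and no printed match overlapped a match of another motif. A match describes letters in a window and no more.

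Levels below are normalized log2 signals of the brightest detected probe of a gene, and a difference of 1 is a doubling. Signals of different genes come from different probes and were not compared with each other. Of the 37 tested members, 25 were detected on all 18 arrays. By the brightest probe, 30 members were detected on all 6 arrays of label 7 and 4 on none (Slc25a4, Slc25a18, Slc25a35 and Slc25a51). Under label 1, 33 were detected on all 6 and 1 on none (Slc25a13), and under label 5, 29 on all 6 and 2 on none (Slc25a13 and Slc25a51). Among all tested genes, 75.5%, 75.7% and 73.6% were detected on all 6 arrays of labels 7, 1 and 5.

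Most carriers differed between the 3 labels. Differences between labels were tested as contrasts of the 6 arrays of each (limma on all 18 arrays, Benjamini-Hochberg adjusted p under 0.05). Against label 1, label 7 had 15 members higher and 17 lower, 32 of 37 or 86.5%, where 75.7% of all genes were called (35.3% higher and 40.3% lower). Against label 5, label 7 had 21 higher and 10 lower, 83.8% of members, where 80.5% of all genes were called (40% higher and 40.5% lower). Label 1 had 18 members higher and 8 lower than label 5, 70.3% of members, where 60.7% of all genes were called (32.9% higher and 27.8% lower). Shares called in either direction lie near those of all genes, while some shares by direction lay further from them. Of the members, 40.5% were higher and 45.9% lower in label 7 than in label 1. Against label 5, 56.8% were higher and 27% lower in label 7, and 48.6% higher and 21.6% lower in label 1. The median absolute difference of the members was 0.81 between labels 7 and 1 (all genes 0.70), 1.29 between labels 7 and 5 (all genes 0.84) and 0.90 between labels 1 and 5 (all genes 0.45).

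In direction, 14 members (37.8%) were called higher in label 7 than in both other labels, against 29.3% of all genes. These were Slc25a1, Slc25a5, Slc25a10, Slc25a13, Slc25a15, Slc25a24, Slc25a28, Slc25a29, Slc25a30, Slc25a38, Slc25a39, Slc25a45, Slc25a47 and Slc25a48. Label 1 stood above both others for 11 members (29.7%, against 17.8% of all genes): Slc25a16, Slc25a17, Slc25a20, Slc25a26, Slc25a32, Slc25a33, Slc25a34, Slc25a35, Slc25a42, Slc25a44 and Slc25a51. Label 5 stood above both others for 6 members (16.2%, against 21% of all genes): Slc25a3, Slc25a4, Slc25a11, Slc25a12, Slc25a18 and Slc25a36. The remaining 6 members, Slc25a2, Slc25a14, Slc25a23, Slc25a25, Slc25a37 and Slc25a53, had no label above both others. Label 5 stood below both others for 13 members (35.1%, against 18.3% of all genes), label 7 for 8 (21.6%, against 28.8%) and label 1 for 2 (5.41%, against 8.58%). The tissue markers move with the label, so that animal and tissue content cannot be told apart here, and the markers' part in these differences was not tested. In bulk RNA, fewer cells of a type and less RNA per cell cannot be told apart either.

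**Figure D1:**
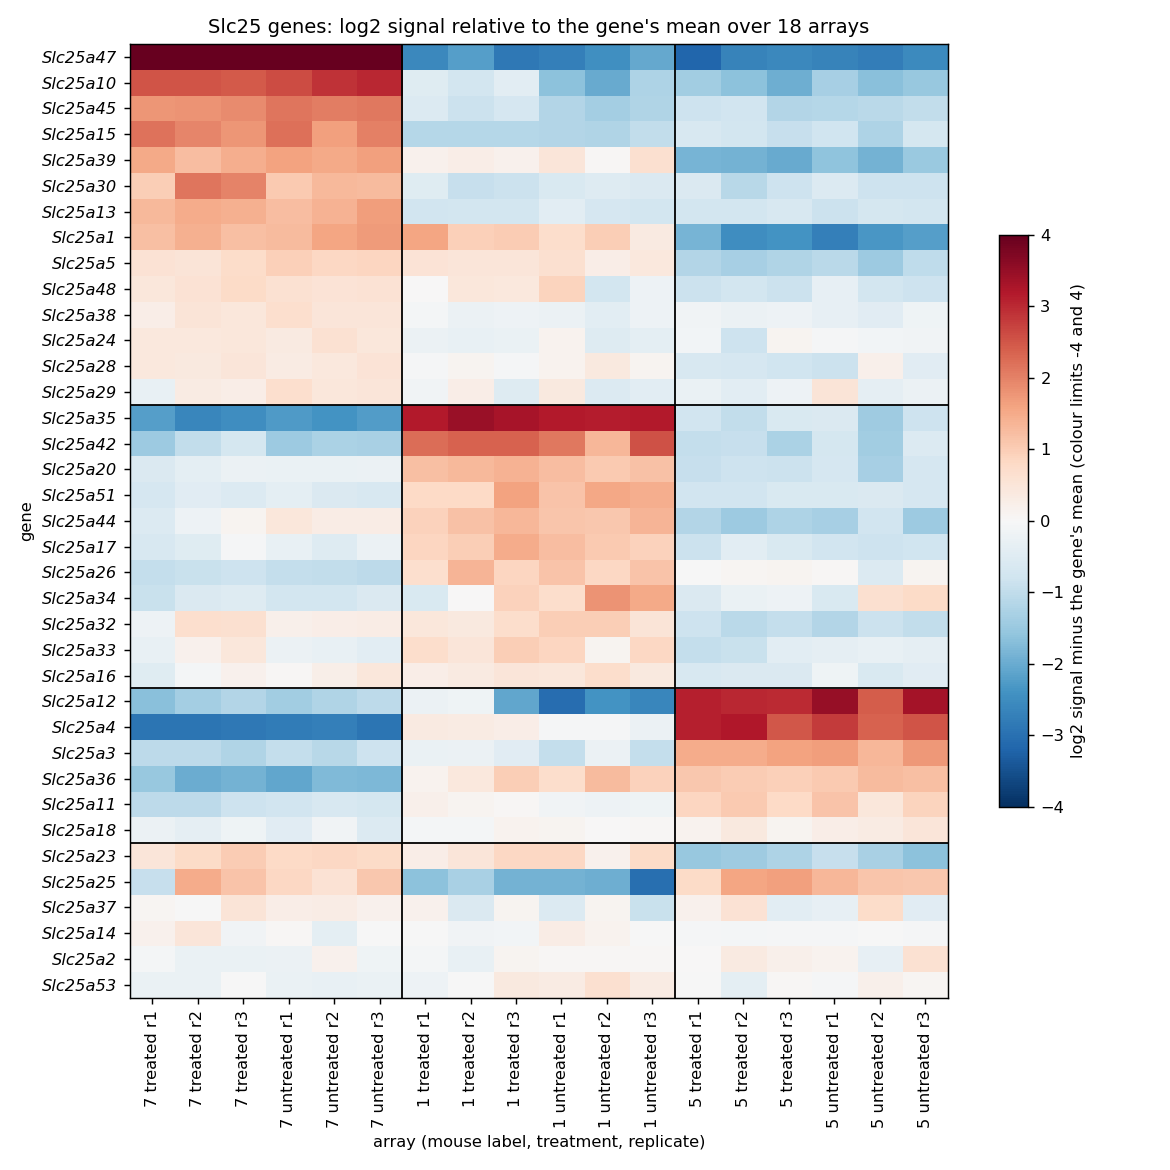
Heat map of the 37 tested Slc25 genes (rows) on the 18 arrays (columns, in the order label 7, label 1, label 5, each treated then untreated). Colour is the log2 signal minus the gene's mean over the 18 arrays, and Slc25a47 exceeds the colour limit under label 7. Horizontal lines part the 14 genes highest in label 7, the 11 highest in label 1, the 6 highest in label 5 and the 6 with no such label.

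Among carriers of adenine nucleotides and phosphate, the paired ADP/ATP carriers ran in opposite directions. Slc25a4 was not detected under label 7, where it read 4.30, 4.32 and 4.35 with U73122 and 4.43, 4.51 and 4.32 without. It read 7.58, 7.56 and 7.49 with U73122 and 7.17, 7.18 and 7.00 without under label 1, and 10.35, 10.44 and 9.72 with U73122 and 10.03, 9.58 and 9.75 without under label 5. The 3 labels did not overlap. Slc25a4 was at least 5.38-fold lower in label 7 than in label 1 and at least 33.8-fold lower than in label 5 (limma adjusted p = 2.07e-13 and 1.7e-17), where every "at least" takes an array's undetected signal as the lowest signal of any detected probe or, if higher, its own. It was lower in label 1 than in label 5, with a log2 difference of -2.65 ± 0.12 (SE, limma adjusted p = 3.05e-12).

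Slc25a5, the X-linked ADP/ATP carrier of proliferating and many other cells, read 13.28, 13.21 and 13.42 with U73122 and 13.65, 13.53 and 13.56 without under label 7. Its signals were 13.23, 13.18 and 13.19 (U73122) and 13.34, 12.95 and 13.12 (untreated) under label 1, and 11.51, 11.36 and 11.49 (U73122) and 11.63, 11.23 and 11.67 (untreated) under label 5. Every array of labels 7 and 1 lay above every array of label 5, while the ranges of labels 7 and 1 overlapped. Slc25a5 was 3.89-fold higher in label 7 than in label 5 and 3.22-fold higher in label 1 than in label 5 (limma adjusted p = 2.63e-13 and 7.96e-12). Between labels 7 and 1 the log2 difference was 0.27 ± 0.08 (SE, limma adjusted p = 0.00699).

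Slc25a3, which imports the phosphate that ATP synthase uses, averaged 10.78 ± 0.13 in label 7, 11.30 ± 0.35 in label 1 and 13.36 ± 0.14 in label 5 (log2 signal, SD, n = 6). It was lower in labels 7 and 1 than in label 5, with log2 differences of -2.58 ± 0.11 and -2.06 ± 0.11 (SE). Among the calcium-regulated ATP-Mg/phosphate carriers, Slc25a23 was higher in labels 7 (7.23 ± 0.18) and 1 (7.00 ± 0.29) than in label 5 (5.12 ± 0.25), and Slc25a24 was higher in label 7 than in both others by 0.71 and 0.64. Slc25a25 differed in its order, with label 1 lowest. Slc25a25 read 8.00, 10.38 and 10.06 with U73122 and 9.75, 9.49 and 9.98 without under label 7, against 7.26, 7.60 and 7.02 with U73122 and 7.00, 6.97 and 5.89 without under label 1. Under label 5 it read 9.69, 10.49 and 10.54 with U73122 and 10.24, 10.03 and 9.996 without. All arrays of labels 7 and 5 stood above all of label 1, and those of labels 7 and 5 overlapped. The log2 difference was 2.65 ± 0.32 for label 7 minus label 1 and -3.21 ± 0.32 for label 1 minus label 5 (SE, limma adjusted p = 6.05e-07 and 8.56e-08). Between labels 7 and 5 it was -0.55 ± 0.32 (limma adjusted p = 0.116).

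The enzymes that these carriers serve were measured beside them. Of 9 ATP synthase and pore genes, 7 were lower and 0 higher in label 7 than in label 1 (median difference -1.19), and 8 were lower and 1 higher than in label 5 (median -1.14). Between labels 1 and 5, 2 were higher and 2 lower in label 1 (median 0.02). The ATP synthase subunit Atp5a1 averaged 9.05 ± 0.22 in label 7, 13.14 ± 0.11 in label 1 and 13.37 ± 0.20 in label 5. Over all genes the median difference was -0.08 for label 7 minus label 1, -0.02 for label 7 minus label 5 and 0.03 for label 1 minus label 5. The shares of all genes called higher and lower, given above, stand beside each count of a list here and below. A list of 11 genes of general mitochondrial content had 9 lower in label 7 than in label 1 (median -1.60, that of Timm23, detected on 0 arrays of label 7), 10 lower in label 7 than in label 5 (median -1.44), and 5 higher and 1 lower in label 1 than in label 5 (median 0.43). Cs, the citrate synthase often used to gauge mitochondrial content, averaged 9.04 ± 0.10 in label 7, 13.29 ± 0.12 in label 1 and 12.64 ± 0.20 in label 5. Medians of the 37 carriers were 0.01, 0.48 and 0.27 for label 7 minus label 1, label 7 minus label 5 and label 1 minus label 5.

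The group listed as amino acid carriers includes Slc25a45, Slc25a47 and Slc25a48, whose substrates are less well established. It had 11 tested members, of which 7 were higher and 2 lower in label 7 than in label 1. Against label 5, 8 were higher and 3 lower in label 7. Of all genes, 35.3% were higher and 40.3% lower in label 7 than in label 1. Against label 5 these shares of all genes were 40% and 40.5%. Slc25a47, a carrier known for its expression in liver, showed the widest difference of the family. It read 13.21, 13.52 and 13.65 with U73122 and 13.13, 13.58 and 13.55 without under label 7. Under label 1 its log2 signals were 5.65, 6.03 and 5.37 (U73122) and 5.48, 5.77 and 6.18 (untreated), and under label 5 they were 5.06, 5.56 and 5.63 (U73122) and 5.55, 5.46 and 5.68 (untreated). Labels 1 and 5 overlapped and lay far below label 7. The log2 difference was 7.69 ± 0.15 for label 7 minus label 1 and 7.95 ± 0.15 for label 7 minus label 5 (SE, limma adjusted p = 3.98e-18 and 2.36e-18), or 207-fold and 247-fold.

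The ornithine/citrulline carrier Slc25a15, which links the matrix and cytosolic steps of the urea cycle, averaged 10.57 ± 0.23 in label 7, 7.49 ± 0.08 in label 1 and 7.78 ± 0.22 in label 5 (SD, n = 6). It was 8.47-fold higher in label 7 than in label 1 and 6.92-fold higher than in label 5. Its relative Slc25a2 lay near the detection limit and averaged 4.71 ± 0.17, 4.83 ± 0.15 and 5.01 ± 0.32 in the same order of labels. All 7 tested urea cycle and ornithine genes were also higher in label 7, with median differences of 4.99 against label 1 and 5.10 against label 5, and 3 of them were lower in label 1 than in label 5. Both medians are those of Asl, whose signals in labels 1 and 5 were near background. Of the 3 genes lower in label 1 than in label 5, Nags and Cps1 were each detected on 0 arrays of label 1 and 2 of label 5. Ass1, which joins citrulline to aspartate, averaged 13.24 ± 0.28 in label 7, 5.46 ± 0.20 in label 1 and 5.06 ± 0.52 in label 5. Arg1, the arginase of liver, averaged 13.94 ± 0.15 in label 7, against 4.48 ± 0.23 in label 1 (detected on 1 of 6 arrays) and 4.37 ± 0.10 in label 5 (detected on 0 of 6). Cps1, the entry enzyme of the cycle, is also in the liver marker list.

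The aspartate/glutamate carriers of the malate-aspartate shuttle divided between labels. Slc25a12, the muscle and brain form, read 6.50, 6.79 and 7.00 with U73122 and 6.77, 6.96 and 7.12 without under label 7. It read 7.93, 8.00 and 6.09 with U73122 and 5.11, 5.77 and 5.54 without under label 1, and 11.27, 11.18 and 11.15 with U73122 and 11.65, 10.58 and 11.49 without under label 5. All arrays of label 5 lay above all others, and label 1 overlapped label 7. Slc25a12 was 20.6-fold lower in label 7 than in label 5 and 28.1-fold lower in label 1 than in label 5 (limma adjusted p = 5.01e-11 and 4.01e-11). Slc25a13, the liver form, was detected by its brightest probe on all 6 arrays of label 7 (6.59 ± 0.15) and on none of label 1 (4.51 ± 0.12) or label 5 (4.44 ± 0.07). By this probe it was at least 3.39-fold higher in label 7 than in label 1, and at least 3.43-fold higher than in label 5. Its other kept probe was detected on 6 arrays of label 7, 0 of label 1 and 3 of label 5, and gave log2 differences of 1.24 for label 7 minus label 1 and 0.89 for label 7 minus label 5, smaller than those bounds. Of the 3 tested shuttle enzymes, 1 was higher and 2 lower in label 7 than in label 1, 3 were lower in label 7 than in label 5, and 2 were lower in label 1 than in label 5. Got2, the mitochondrial aspartate aminotransferase, averaged 13.15 ± 0.11 in label 7, 11.54 ± 0.24 in label 1 and 13.54 ± 0.11 in label 5, and Mdh2, the mitochondrial malate dehydrogenase, averaged 9.92 ± 0.30, 12.07 ± 0.23 and 12.71 ± 0.28.

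Slc25a44, which imports branched-chain amino acids and is known from brown fat, read 8.37, 8.71 and 9.03 with U73122 and 9.35, 9.20 and 9.21 without under label 7. The matching signals were 9.82, 10.07 and 10.24 (U73122) and 10.02, 9.99 and 10.26 (untreated) under label 1 and 7.74, 7.46 and 7.67 (U73122) and 7.59, 8.13 and 7.46 (untreated) under label 5. The 3 labels did not overlap, with label 1 highest and label 5 lowest. The log2 difference of Slc25a44 was -1.09 ± 0.13 for label 7 minus label 1 and 2.39 ± 0.13 for label 1 minus label 5 (SE, limma adjusted p = 5.12e-07 and 2.53e-11). Of 7 genes of branched-chain amino acid breakdown, 6 were lower and 0 higher in label 7 than in label 1 (median -1.70), 3 were higher and 3 lower in label 7 than in label 5 (median -0.12), and 6 were higher and 1 lower in label 1 than in label 5 (median 1.42). Bcat2, the mitochondrial aminotransferase of these amino acids, averaged 7.31 ± 0.14 in label 7, 10.74 ± 0.23 in label 1 and 9.04 ± 0.32 in label 5. The 1 gene lower in label 1 than in label 5 was Bckdk, the kinase that restrains the pathway (difference -0.51).

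Of the other members of the amino acid group, 4 were higher in label 7 than in both other labels. Slc25a45, whose transported substrate is less well established, averaged 9.27 ± 0.17 in label 7, 6.34 ± 0.32 in label 1 and 6.31 ± 0.16 in label 5. Slc25a38, the glycine carrier needed for haem synthesis, averaged 9.84 ± 0.14, 9.14 ± 0.12 and 9.11 ± 0.11 in that order. Slc25a48 averaged 5.89 ± 0.10, 5.44 ± 0.58 and 4.59 ± 0.21, and was detected on 6, 5 and 1 arrays of those labels. The basic amino acid carrier Slc25a29 lay near the detection limit, with differences of 0.48 and 0.48 for label 7 minus labels 1 and 5. Slc25a18, a glutamate carrier, was not detected under label 7 and was at least 1.17-fold lower there than in label 1 and at least 1.4-fold lower than in label 5.

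**Figure D2:**
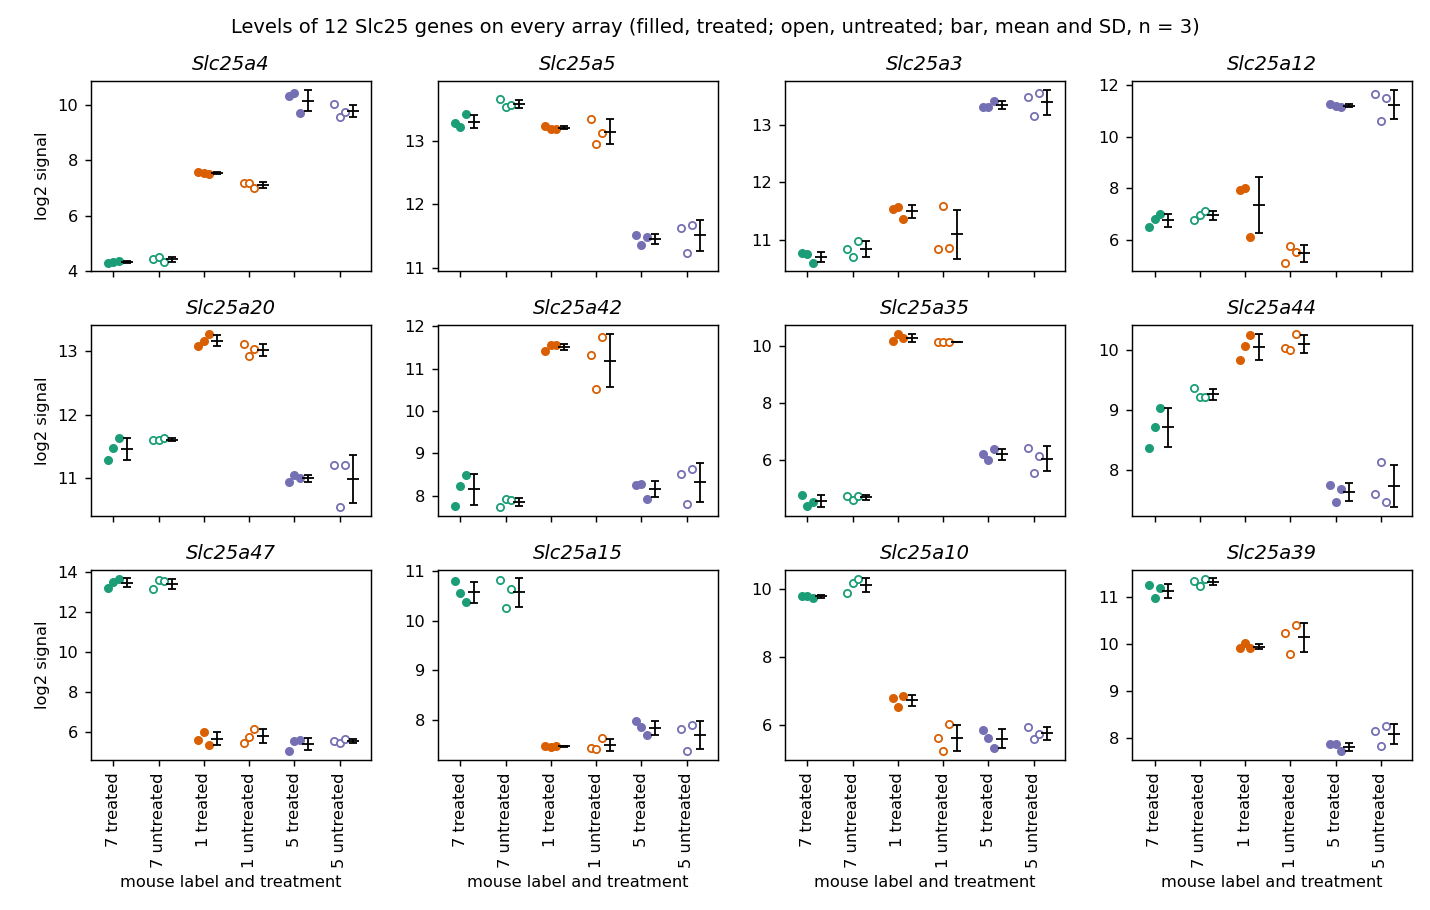
Log2 signal (vertical axis of each panel) of 12 Slc25 genes in the 6 groups, with filled points for treated and open points for untreated arrays, and a bar for the mean and SD of the 3 arrays beside them. Each panel has its own vertical range, which does not start at 0. Slc25a4, Slc25a3 and Slc25a12 are highest under label 5, Slc25a20, Slc25a42, Slc25a35 and Slc25a44 under label 1, and Slc25a47, Slc25a15, Slc25a10 and Slc25a39 under label 7, while Slc25a5 is high under labels 7 and 1.

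Among carriers of carboxylates and sulphur compounds, Slc25a10 and Slc25a35 stood far apart between labels. Slc25a10, the dicarboxylate carrier that exchanges malate or succinate for phosphate, read 9.79, 9.80 and 9.72 with U73122 and 9.88, 10.15 and 10.27 without under label 7. It read 6.79, 6.54 and 6.85 with U73122 and 5.62, 5.24 and 6.02 without under label 1, and 5.87, 5.62 and 5.32 with U73122 and 5.94, 5.58 and 5.76 without under label 5. Label 7 lay above all other arrays, and labels 1 and 5 overlapped. Slc25a10 was 19.1-fold higher in label 7 than in label 5 and 13.5-fold higher than in label 1 (limma adjusted p = 4.75e-15 and 3.66e-14), and the difference of label 1 minus label 5 was 0.50 ± 0.14 (log2, SE, limma adjusted p = 0.00414). On the untreated arrays alone the order of labels 1 and 5 was reversed, and Slc25a10 averaged 5.63 ± 0.39 in label 1 and 5.76 ± 0.18 in label 5 (SD, n = 3).

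Slc25a35, a member without an assigned substrate, was not detected under label 7, where it read 4.77, 4.36 and 4.51 with U73122 and 4.73, 4.58 and 4.73 without. It read 10.15, 10.42 and 10.28 with U73122 and 10.14, 10.13 and 10.14 without under label 1, and 6.20, 6.00 and 6.38 with U73122 and 6.40, 5.54 and 6.15 without under label 5. None of the labels overlapped, and label 1 was highest. Slc25a35 was at least 39.6-fold lower in label 7 than in label 1 and at least 2.31-fold lower than in label 5, and 17.2-fold higher in label 1 than in label 5 (limma adjusted p = 7.53e-17, 9.48e-09 and 4.74e-14). Slc25a34, its near relative, varied widely within groups. Its signals were 5.65, 5.96 and 6.04 (U73122) and 5.81, 5.81 and 5.97 (untreated) under label 7 and 5.93, 6.55 and 7.48 (U73122) and 7.24, 8.35 and 8.06 (untreated) under label 1. Under label 5 they were 5.96, 6.27 and 6.36 (U73122) and 5.94, 7.18 and 7.30 (untreated), so that all labels overlapped. Slc25a34 differed by -1.40 ± 0.26 for label 7 minus label 1, -0.63 ± 0.26 for label 7 minus label 5 and 0.76 ± 0.26 for label 1 minus label 5 (limma adjusted p = 0.000115, 0.0356 and 0.0177).

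Slc25a1, which exports citrate for fatty acid synthesis, averaged 10.30 ± 0.21 in label 7, 9.84 ± 0.40 in label 1 and 6.57 ± 0.30 in label 5 (SD, n = 6). It was 13.3-fold higher in label 7 and 9.61-fold higher in label 1 than in label 5. Of 4 tested genes of citrate synthesis and use, 3 were lower in label 7 than in label 1 (median -1.48), 2 were higher and 2 lower in label 7 than in label 5 (median -0.23), and 3 were higher and 1 lower in label 1 than in label 5 (median 0.76). Acly, which splits citrate in the cytosol, averaged 10.87 ± 0.40 in label 7, 12.98 ± 0.39 in label 1 and 10.08 ± 0.26 in label 5. The oxoglutarate/malate carrier Slc25a11 ran the other way from Slc25a1, at 9.37 ± 0.17 in label 7, 10.18 ± 0.17 in label 1 and 11.08 ± 0.23 in label 5, with no overlap between labels.

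Slc25a39, which brings glutathione into mitochondria, read 11.25, 10.97 and 11.18 with U73122 and 11.35, 11.24 and 11.38 without under label 7. It read 9.91, 10.01 and 9.90 with U73122 and 10.23, 9.79 and 10.39 without under label 1, and 7.87, 7.86 and 7.71 with U73122 and 8.14, 7.84 and 8.26 without under label 5. The labels did not overlap, with label 7 highest and label 5 lowest. Slc25a39 was 2.28-fold higher in label 7 than in label 1 and 9.72-fold higher than in label 5 (limma adjusted p = 7.06e-09 and 2.9e-15). Slc25a30 was higher in label 7 (7.35 ± 0.49) than in label 1 (5.24 ± 0.19) and label 5 (5.11 ± 0.20). Slc25a14, a relative of the uncoupling proteins, averaged 5.84 ± 0.29, 5.83 ± 0.16 and 5.76 ± 0.03, and its 3 label differences had limma adjusted p from 0.554 to 0.966.

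The carriers of carnitine, coenzyme A, nucleotides and cofactors had 9 tested members, and 9 of 9 were lower in label 7 than in label 1 (median -1.56). Against label 5, 8 were higher and 1 lower in label 1 (median 1.65), and 5 were higher and 2 lower in label 7 (median 0.33). Among all genes, 40.3% were lower and 35.3% higher in label 7 than in label 1. Against label 5, 32.9% of all genes were higher and 27.8% lower in label 1, and 40% higher and 40.5% lower in label 7. Slc25a42, which imports coenzyme A, read 7.75, 8.22 and 8.48 with U73122 and 7.73, 7.92 and 7.88 without under label 7. Its signals were 11.43, 11.56 and 11.56 (U73122) and 11.31, 10.51 and 11.75 (untreated) under label 1, and 8.24, 8.28 and 7.93 (U73122) and 8.50, 7.79 and 8.63 (untreated) under label 5. Label 1 lay above all other arrays, and labels 7 and 5 overlapped. Slc25a42 was 10.3-fold lower in label 7 than in label 1 and 8.73-fold higher in label 1 than in label 5 (limma adjusted p = 1.68e-11 and 9.73e-11).

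Slc25a20, the carnitine/acylcarnitine carrier of fatty acid oxidation, averaged 11.53 ± 0.14 in label 7, 13.09 ± 0.12 in label 1 and 10.99 ± 0.24 in label 5 (SD, n = 6), with no overlap between labels. Of the 4 other genes of the carnitine shuttle, 3 were lower in label 7 than in label 1 (median -1.76), 2 were higher and 2 lower in label 7 than in label 5 (median -0.92), and 3 were higher in label 1 than in label 5 (median 0.32). Cpt1b, the outer membrane enzyme of muscle and brown fat, averaged 6.04 ± 0.33 in label 7, 11.95 ± 0.10 in label 1 and 11.66 ± 0.12 in label 5, and Cpt2, the inner membrane enzyme, averaged 11.53 ± 0.12, 12.68 ± 0.10 and 11.16 ± 0.15. Slc25a17, the peroxisomal carrier of coenzyme A and related cofactors, averaged 8.98 ± 0.22 in label 7, 10.44 ± 0.23 in label 1 and 8.64 ± 0.17 in label 5. Slc25a26, which imports S-adenosylmethionine, averaged 7.12 ± 0.08, 9.05 ± 0.26 and 8.02 ± 0.26 in the same order. Slc25a32, a folate and FAD carrier, averaged 6.73 ± 0.32, 7.10 ± 0.26 and 5.44 ± 0.13.

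Slc25a51, which imports NAD, was detected on all 6 arrays of label 1 (6.34 ± 0.37) and on none of label 7 (4.57 ± 0.10) or label 5 (4.45 ± 0.09). It was at least 2.7-fold lower in label 7 than in label 1 and at least 2.88-fold higher in label 1 than in label 5. Slc25a16 read 8.59, 8.99 and 9.23 with U73122 and 9.13, 9.32 and 9.53 without under label 7. Under label 1 it read 9.34, 9.43 and 9.55 with U73122 and 9.53, 9.79 and 9.48 without, and under label 5 it read 8.45, 8.49 and 8.49 with U73122 and 8.90, 8.47 and 8.62 without. Label 7 overlapped both other labels, which did not overlap each other. The log2 difference of Slc25a16 was -0.39 ± 0.11 for label 7 minus label 1 and 0.95 ± 0.11 for label 1 minus label 5 (SE), both past the threshold.

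The pyrimidine nucleotide carriers Slc25a33 and Slc25a36 differed from each other. Slc25a33 read 8.71, 9.18 and 9.45 with U73122 and 8.76, 8.72 and 8.60 without under label 7. It read 9.71, 9.49 and 9.99 with U73122 and 9.86, 9.12 and 9.82 without under label 1, and 8.05, 8.13 and 8.60 with U73122 and 8.64, 8.70 and 8.64 without under label 5. Label 1 was the highest for Slc25a33, overlapping label 7 but not label 5. Slc25a36 read 5.11, 4.64 and 4.74 with U73122 and 4.53, 4.85 and 4.83 without under label 7, where it was detected on 1 of 6 arrays. Its signals were 6.77, 7.04 and 7.61 (U73122) and 7.33, 7.89 and 7.55 (untreated) under label 1 and 7.69, 7.65 and 7.58 (U73122) and 7.66, 7.90 and 7.84 (untreated) under label 5. Labels 1 and 5 overlapped and both lay above label 7. The log2 difference of Slc25a36 was -2.58 ± 0.14 for label 7 minus label 1 and -2.94 ± 0.14 for label 7 minus label 5 (SE, limma adjusted p = 2.12e-11 and 2.27e-12). The size of both rests on label 7 signals that were near background. For Slc25a33 the differences were -0.76, 0.44 and 1.20 for label 7 minus label 1, label 7 minus label 5 and label 1 minus label 5, each past the threshold.

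Iron carriers and the remaining members had 3 tested genes. Slc25a28 (mitoferrin 2), the widely used iron importer, read 9.80, 9.78 and 9.86 with U73122 and 9.70, 9.80 and 9.93 without under label 7. It read 9.33, 9.50 and 9.33 with U73122 and 9.52, 9.77 and 9.48 without under label 1, and 8.74, 8.71 and 8.59 with U73122 and 8.52, 9.58 and 8.94 without under label 5. Labels 7 and 5 did not overlap, and label 1 overlapped both. Slc25a28 was higher in label 7 than in label 5 by 0.96 ± 0.13 and in label 1 than in label 5 by 0.64 ± 0.13 (log2, SE). Slc25a37 (mitoferrin 1), the iron importer of red cell precursors, averaged 7.43 ± 0.19 in label 7, 6.93 ± 0.46 in label 1 and 7.26 ± 0.52 in label 5, and its 3 label differences had limma adjusted p from 0.0576 to 0.501. Of 7 genes of haem and iron-sulphur synthesis, 3 were higher and 3 lower in label 7 than in label 1, 3 were higher and 3 lower in label 7 than in label 5, and 4 were higher and 2 lower in label 1 than in label 5. Alad, an early enzyme of haem synthesis, averaged 12.07 ± 0.13 in label 7, 11.08 ± 0.23 in label 1 and 9.10 ± 0.25 in label 5.

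Slc25a53, a member without an assigned substrate, read 5.31, 5.31 and 5.58 with U73122 and 5.33, 5.30 and 5.34 without under label 7. Its signals were 5.37, 5.57 and 5.99 (U73122) and 5.93, 6.23 and 5.93 (untreated) under label 1 and 5.56, 5.21 and 5.64 (U73122) and 5.55, 5.78 and 5.65 (untreated) under label 5. All labels overlapped, and the log2 difference of Slc25a53 was -0.48 ± 0.12 for label 7 minus label 1 (SE, limma adjusted p = 0.00182). From the treated arrays alone it was -0.24 (limma adjusted p = 0.221). Relatives of the family under other symbols had 4 tested genes. All 4 were lower in label 7 than in label 1, 2 were lower in label 7 than in label 5, and all 4 were higher in label 1 than in label 5. Ucp1, the uncoupling protein of brown fat, averaged 4.72 ± 0.59 in label 7, 13.33 ± 0.54 in label 1 and 4.44 ± 0.31 in label 5, and was detected on 1, 6 and 1 of the 6 arrays.

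Probes of a gene did not always give the same order of labels. Of 12 tested members with several kept probes, 4 had the same sign for every probe in all 3 label comparisons (Slc25a1, Slc25a11, Slc25a34 and Slc25a37). The sign differed between probes for Slc25a3 and Slc25a12 between labels 7 and 1, for Slc25a20 and Slc25a42 between labels 7 and 5, and for Slc25a13, Slc25a15, Slc25a36 and Slc25a38 between labels 1 and 5.

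U73122 gave few calls among the carriers. Over the 3 labels, 0 of 37 members were called, against 0% of all genes (limma on 6 profiles, 1 for each label and treatment, smallest adjusted p among members = 0.817). At an unadjusted p under 0.05 there were 3 members (8.11%), against 615 genes (5.39%), and with the 18 arrays as units limma called 0 members. The median difference of the members was 0.01, against 0.00 over all genes, and single members ranged from -0.61 to 0.55. Slc25a34 and Slc25a39 had the smallest p. Group means of Slc25a34 were 5.88 ± 0.21 with U73122 and 5.86 ± 0.09 without under label 7, 6.65 ± 0.78 and 7.88 ± 0.58 under label 1, and 6.20 ± 0.21 and 6.81 ± 0.75 under label 5 (SD, n = 3). Its difference over the labels was -0.61 ± 0.24 (SE, limma adjusted p = 0.817), with a 95% interval of -1.19 to -0.03. Slc25a39 averaged 11.13 ± 0.15 with U73122 and 11.32 ± 0.07 without under label 7, 9.94 ± 0.06 and 10.14 ± 0.31 under label 1, and 7.81 ± 0.09 and 8.08 ± 0.22 under label 5. Its difference was -0.22 ± 0.09 (SE, limma adjusted p = 0.817). The 95% interval lay within a 2-fold change either way for 35 of the 37 members, all but Slc25a12 and Slc25a34.

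Under label 1, Slc25a10 and Slc25a12 were called higher on the treated than on the untreated arrays, and 0 members were called lower. These 2 of 37 members (5.41%) stand against 0.885% of all genes (0.772% higher and 0.114% lower). The dicarboxylate carrier Slc25a10 read 6.79, 6.54 and 6.85 with U73122, against 5.62, 5.24 and 6.02 without it, and the groups did not overlap. It averaged 6.73 ± 0.16 treated and 5.63 ± 0.39 untreated (SD, n = 3) and rose by 1.10 ± 0.19 on the log2 scale (SE, limma adjusted p = 0.00919), or 2.14-fold. The aspartate/glutamate carrier Slc25a12 read 7.93, 8.00 and 6.09 with U73122, against 5.11, 5.77 and 5.54 without it. Treated replicate 3 lay near the untreated arrays, and the groups did not overlap. Slc25a12 averaged 7.34 ± 1.08 treated and 5.47 ± 0.33 untreated and rose by 1.87 ± 0.38 (SE, limma adjusted p = 0.0236), while its other kept probe gave a difference of 0.41.

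Tissue markers moved with treatment under label 1. The log2 of the summed signal of 13 skeletal muscle markers was 16.66, 16.73 and 15.18 on the treated arrays, with 13 detected on each, and 9.38, 14.88 and 11.69 on the untreated arrays, with 6, 12 and 10 detected. The 6 arrays of label 1 stood in the same order for this muscle sum and for Slc25a12. From the highest down, Slc25a12 read 8.00, 7.93 and 6.09 on treated replicates 2, 1 and 3. It then read 5.77, 5.54 and 5.11 on untreated replicates 2, 3 and 1. The muscle sum under label 5, where Slc25a12 was highest, was 17.69 to 17.91. The part of the muscle markers in the rise of Slc25a12 was not tested. The same value for 7 general fat markers was 14.66 to 14.73 on the treated and 14.66 to 14.71 on the untreated arrays of label 1. Untreated replicates 1 and 3 of label 1 also carried Eif2s3y in place of Xist, while all 3 treated arrays carried Xist. Under label 1, U73122 is thus partly confounded with the animal, its sex and the muscle content. The parts of these in the differences of Slc25a10 and Slc25a12 were not tested. Without the arrays that carried Eif2s3y, label 1 keeps 1 untreated array, and the difference was 1.49 for Slc25a10 and 1.57 for Slc25a12.

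**Figure D3:**
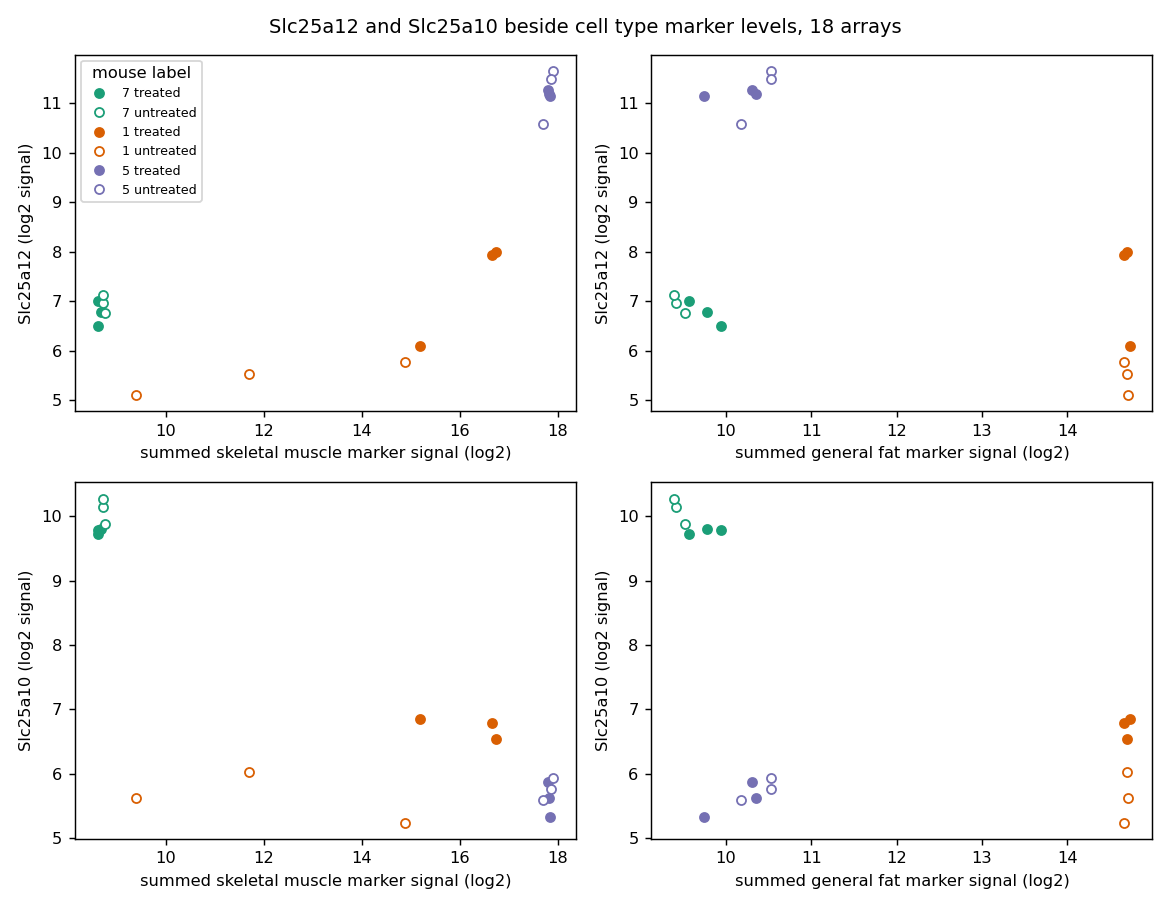
Log2 signal of Slc25a12 (upper panels) and Slc25a10 (lower panels) on each of the 18 arrays against the log2 of the summed signal of skeletal muscle markers (left) and of general fat markers (right), with filled points for treated and open points for untreated arrays. Under label 1, the 6 arrays stand in the same order for Slc25a12 and the muscle sum, while the fat sum is 14.66 to 14.73 on all 6 arrays.

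Both calls under label 1 depend on single arrays. Slc25a10 had a limma adjusted p of 0.0648 without treated replicate 1, without which Slc25a12 had one of 0.166. For Slc25a12 the adjusted p was 0.151 when treated replicate 2 was left out, 0.0616 when untreated replicate 1 was, and 0.0924 when untreated replicate 3 was (limma). From the 6 arrays of label 1 alone, the limma adjusted p was 0.293 for Slc25a10 and 0.321 for Slc25a12. Among members that did not pass, Slc25a45 differed by 0.55 ± 0.14 (6.62 ± 0.16 treated and 6.07 ± 0.10 untreated, limma adjusted p = 0.062) and Slc25a34 by -1.23 ± 0.37 (limma adjusted p = 0.148). Slc25a34 passed the threshold without treated replicate 3 (-1.64, limma adjusted p = 0.0213) and with Xist as a covariate (-1.65, limma adjusted p = 0.0301). It also passed with the replicate number as a block (-1.23, limma adjusted p = 0.0286). Within label 1 the Xist covariate only set untreated replicate 2 apart from untreated replicates 1 and 3. Without the arrays that carried Eif2s3y, which leaves 1 untreated array under label 1, the difference of Slc25a34 was -1.70. At an unadjusted p under 0.05 there were 10 members (27%), against 11.5% of all genes. The median difference of the members was -0.02, against -0.01 over all genes. The interval lay within a 2-fold change for 32 of the 37 members.

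Label 5 gave 0 calls among the members, against 0.0701% of all genes, and 1 member at an unadjusted p under 0.05 (2.7%, against 11.3% of all genes). The smallest p belonged to Slc25a4 and Slc25a33. Slc25a4, the ADP/ATP carrier, read 10.35, 10.44 and 9.72 with U73122, against 10.03, 9.58 and 9.75 without it. The groups overlapped, and the log2 difference was 0.38 ± 0.17 (SE, limma adjusted p = 0.41). The pyrimidine nucleotide carrier Slc25a33 read 8.05, 8.13 and 8.60 with U73122, against 8.64, 8.70 and 8.64 without it. These groups did not overlap, and the log2 difference was -0.40 ± 0.21 (SE, limma adjusted p = 0.513). Members had a median difference of -0.06, against 0.01 over all genes, and the 95% interval lay within a 2-fold change for 35 of 37. Untreated replicates 1 and 3 of label 5 carried Eif2s3y in place of Xist, while every treated array carried Xist. Treatment is thus partly confounded with the animal and its sex under label 5 too. Without the arrays that carried Eif2s3y, label 5 keeps 1 untreated array, replicate 2, and Slc25a28, a mitochondrial iron importer, differed by -0.90. Untreated replicates 1, 2 and 3 of label 5 read 8.52, 9.58 and 8.94 for Slc25a28.

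Label 7 gave 0 calls among the members, against 0.57% of all genes, and 5 members at an unadjusted p under 0.05 (13.5%, against 10.3% of all genes). Slc25a44, the carrier of branched-chain amino acids, read 8.37, 8.71 and 9.03 with U73122, against 9.35, 9.20 and 9.21 without it, and the groups did not overlap. Its difference was -0.55 ± 0.18 (SE, limma adjusted p = 0.236). Slc25a16 read 8.59, 8.99 and 9.23 treated and 9.13, 9.32 and 9.53 untreated, which overlapped, and differed by -0.39 ± 0.16 (SE, limma adjusted p = 0.385). Members had a median difference of -0.05, against 0.00 over all genes, and the 95% interval lay within a 2-fold change for 35 of 37, all but Slc25a25 and Slc25a30.

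**Figure D4:**
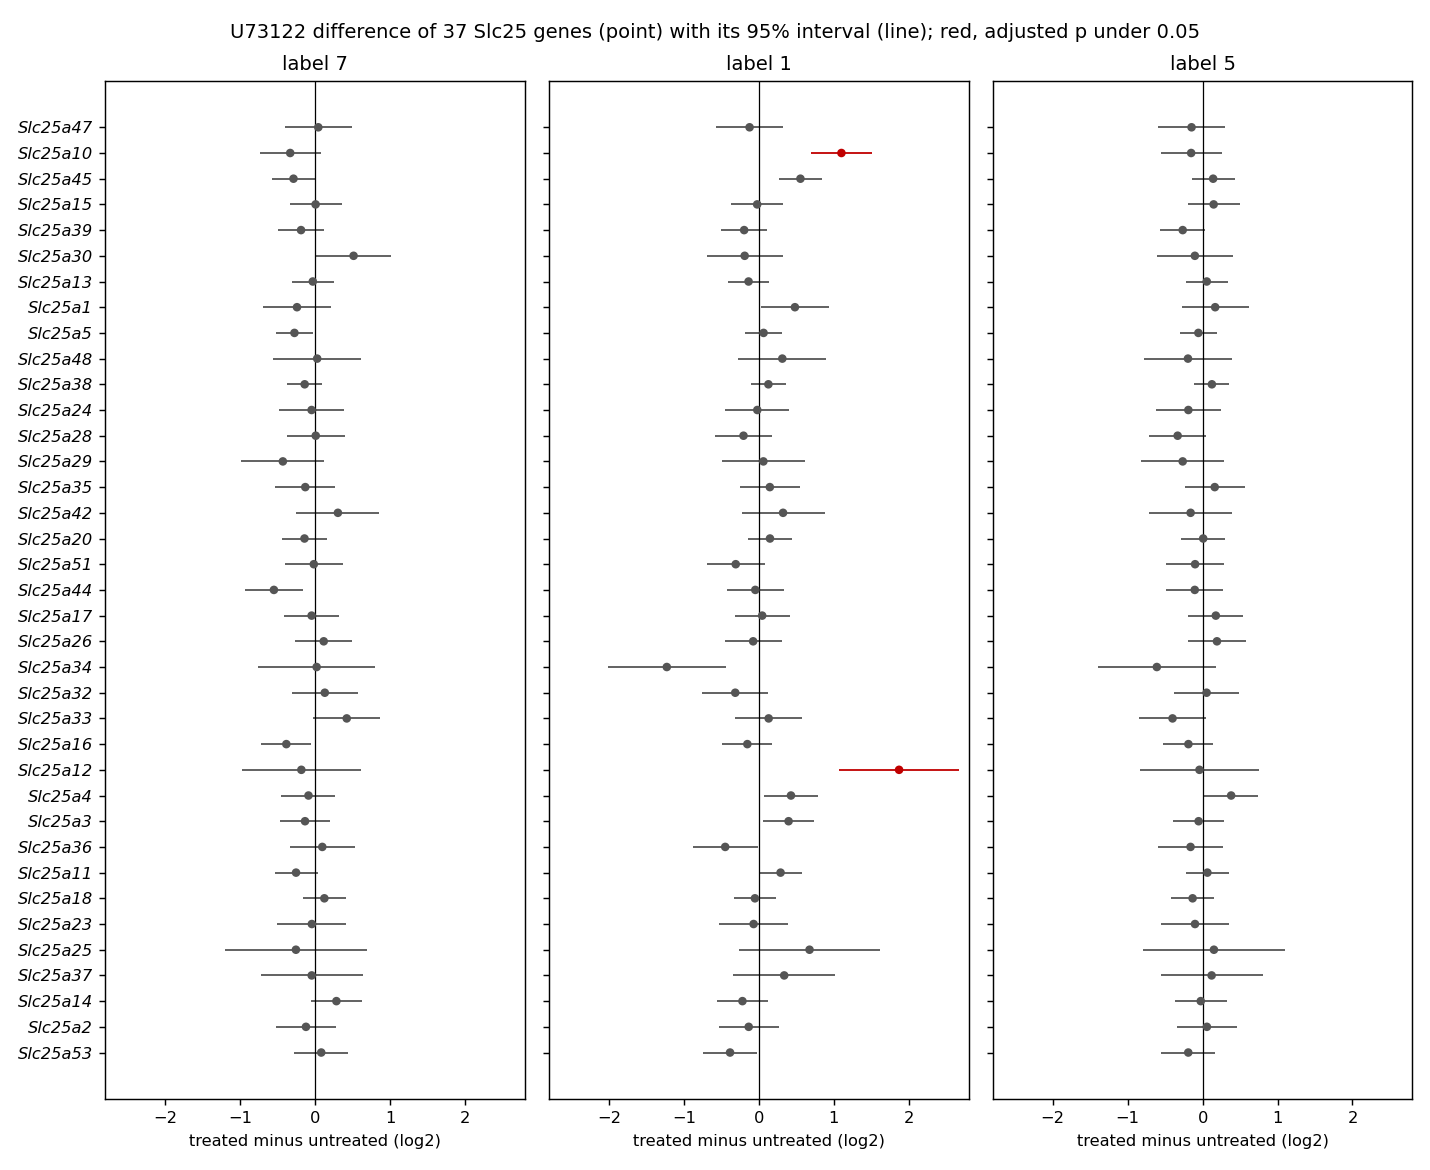
Treated minus untreated difference (horizontal axis, log2) of the 37 Slc25 genes under labels 7, 1 and 5, with points for the difference and lines for its 95% interval from the limma fit. The 2 called genes, Slc25a12 at 1.87 and Slc25a10 at 1.10 under label 1, are red, and no gene is called under labels 7 or 5.

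The difference of the response between labels was tested with a moderated F test in the same fit. It was past the threshold for 1 member of 37 (2.7%), against 0.377% of all genes, and at an unadjusted p under 0.05 for 5 members (13.5%), against 12.1% of all genes. That member was Slc25a10, with treated minus untreated differences of -0.33 under label 7, 1.10 under label 1 and -0.15 under label 5 (F = 16.49, limma adjusted p = 0.036). Slc25a45 (limma adjusted p = 0.13) and Slc25a12 (limma adjusted p = 0.144) followed, so a difference in the response of Slc25a12 between labels was not shown. The metabolic lists that surround the carriers had 0 calls with U73122 over the labels or under labels 7 or 5. Under label 1 the single call was Fasn, the fatty acid synthase that uses exported citrate, which rose by 1.07 ± 0.24 (SE, limma adjusted p = 0.0392). Fasn was detected on 4 of the 6 arrays of label 1. Its untreated signals there were 5.31, 4.40 and 4.45, so the size of the rise rests on signals near background. Under label 7 Fasn differed by -1.06 ± 0.24 (SE, limma adjusted p = 0.0527).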

How the data were processed

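Illumina mouse bead arrays measured the RNA of 18 samples, 1 array each, in 6 groups of 3. The deposited table holds a non-normalized intensity and a detection p-value for each probe and array, per the file headers, and 23.2% to 30.9% of intensities on an array were below 0. Signals were background corrected with normexp, quantile normalized and put on the log2 scale with neqc in limma 3.58.1 (R 4.3.3, offset 16), computed here from the deposited intensities. The authors' series matrix holds intensities on a linear scale with the same rank order, near-equal sorted values on every array, values below 0 and a column median of 7.79. It was not centred by gene, served as an alternative, and its processing is not given in the sources used here.

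Probes detected on all 3 arrays of at least 1 group were kept (21193 of 45281, of which 3210 had no usable symbol), and each of 11406 genes was read from its brightest probe. Detection ranged from 38.2% to 44.2% of probes on an array, and 3 arrays a group limit the precision. limma (lmFit, eBayes with trend) was fitted over all genes with group means, and over 6 profiles for the treatment over labels. Benjamini-Hochberg adjustment ran over all genes. The code was tested on simulated data. Members, gene lists and tests were chosen with earlier results of these data known. Named with values on every array were the called members of the treatment comparisons, the pair of smallest p where none was called, and the leader of each role group.

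Alternatives were no background correction, the series matrix, the mean of probes, other detection filters, robust variance, a threshold of 0.01, replicate blocks, leaving out each array, and the arrays that carry Eif2s3y left out or Xist as a covariate. Replicate numbers were not taken to pair the arrays.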

Additional observations from a re-analysis of the deposited data

Results flagged for a closer look

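The response of Slc25a10 to U73122 differed between labels by the test of the difference itself (moderated F = 16.49, limma adjusted p = 0.036). Treated minus untreated log2 differences were -0.33 under label 7, 1.10 under label 1 and -0.15 under label 5. Under label 1 the treated and untreated arrays also differed in sex transcripts and muscle markers, and the part of these was not tested. With single arrays left out F ranged from 12.51 to 23.32, and the call was lost in 11 of 18 such fits: without any 1 array of label 7, without treated replicate 1 or 2 or untreated replicate 1 of label 1, and without treated replicate 2 or untreated replicate 3 of label 5.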

How the results depend on the processing

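Of 85 alternatives to the counts of called Slc25 genes, 75 stayed within 1.5 times and 10 moved. Of 344 alternatives for single genes and all-gene counts, 315 were unchanged. Unchanged meant direction and call for a gene's difference, the call alone for F, and within 1.5 times for a count. Among the 249 gene differences, 242 kept direction and call. The 2 Slc25 genes called under label 1 became 1 with robust variances, 1 at a threshold of 0.01 and 0 from the 6 arrays of the label alone. The count was 7 when Xist was a covariate. Within a group, Xist varied only among the untreated arrays of labels 1 and 5, where replicate 2 alone was high. The covariate's term is therefore set by that 1 array against the other untreated arrays of each label. Every result with this covariate, above and below, has that limit. Under label 5, 1 gene was called with the Xist covariate (Slc25a28). The single difference between labels became 0 at 0.01 and 2 with the covariate. Dropping the 4 untreated arrays with Eif2s3y signal leaves labels 1 and 5 with 1 untreated array each, so counts from that fit are not given. The causes were not tested. With the covariate the difference of Slc25a34 over the labels is 0.0177, its label 7 difference, since labels 1 and 5 then add nothing to the estimate, and no turn of direction is read from it. With single arrays left out, 0 to 3 genes were called under label 1 (0 without treated replicate 1), 0 to 2 for the difference between labels, 28 to 32 for label 7 against label 1, 28 to 30 for label 7 against label 5 and 23 to 26 for label 1 against label 5.

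Over all genes, the 101 calls under label 1 became 63 with robust variances, 31 at 0.01, 1 from 6 arrays and 738 with the covariate. The 8 under label 5 became 13 with the mean of probes, 5 at 0.01, 1 from 6 arrays and 745 with the covariate. The 65 under label 7 became 34 without background correction, 34 with the series matrix, 22 at 0.01 and 17 from 6 arrays. The 43 differences between labels became 11 at 0.01 and 460 with the covariate. Over the labels, 0 became 4 with 18 arrays as units. Deviations from the group means correlated above 0.1 between same-numbered treated and untreated arrays of a label in 6 of 9 pairs (-0.043 to 0.28). Between arrays of unlike number these correlations ran from -0.321 to 0.214. Not every same-numbered pair passed 0.1. Under labels 1 and 5, treated replicates 1 and 3 carried Xist and untreated replicates 1 and 3 Eif2s3y, so these numbers do not pair samples of 1 animal. For both reasons the numbers were not taken to pair the arrays. With the number as a block the Slc25 counts were 0 over the labels, 3 under label 1 (Slc25a34 added, limma adjusted p = 0.0286), 0 under labels 5 and 7, 1 for the difference, and 26, 31 and 30 between labels 1 and 5, 7 and 1, and 7 and 5. All-gene counts with the block were 188 under label 1, 5 under label 5 and 79 for the difference. Signals near background limit Slc25a4, Slc25a13, Slc25a18, Slc25a35 and Slc25a51, for which some labels give only bounds, and Slc25a36 under label 7.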
